A study of Mus musculus with 12 samples.

Results

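The genes described here are the mouse translation initiation factor genes, taken as every row of the deposited expression table whose name begins with Eif and a digit, less 3 names that the rule leaves out. That gave 56 of the 23440 genes in the table. The RNA came from bone marrow-derived macrophages (BMDM) of mice in the C57BL/6J background (C57/BL6 in the labels), grown for 7 days in 30% L929-conditioned medium and all primed overnight with interferon-γ. The 4 groups of 3 cell cultures each were WT control and WT M1, from mice with floxed Bmal1 and no Cre, and M-BKO control and M-BKO M1, from mice with floxed Bmal1 and Lyz2-Cre. Control cultures received no further stimulus, and M1 cultures received lipopolysaccharide (LPS) for 8 hr. The Cre is driven from the Lyz2 locus of myeloid cells and was named for M-BKO alone, so effects of the Cre insertion and of Bmal1 loss cannot be told apart. How many mice gave the cultures is not stated, so a p-value here rests on differences among cultures that may be technical.

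Values are TPM, transcripts per 1000000 transcripts of a library, which is a level per length. TPM keeps no read number, so the depth is unknown. Between 13315 and 13574 genes had a value above 0 in each of the 12 libraries. Arntl, the gene of Bmal1, was 7.25 to 7.71 TPM in WT controls, 4.81 to 5.80 in WT M1, 1.97 to 2.46 in M-BKO controls and 3.03 to 3.39 in M-BKO M1. Lyz2 itself was 31785 to 34645 TPM in WT controls, 14840 to 15081 in WT M1 and 47.0 to 78.8 in M-BKO libraries. All 7 macrophage markers found were expressed, with a summed level of 4862 to 6215 TPM. Erythroid markers summed to at most 0.184 TPM, stromal markers to at most 1.16 and B cell markers to at most 1.87. T cell markers summed to 4.82 to 6.10 TPM. Cd3e was 0 in 11 of 12 libraries, but Cd4 was 3.48 to 4.03 TPM in controls and Lck 3.62 to 5.13 in M1. Dendritic cell markers summed to 3.53 to 4.27 TPM in WT controls and 7.04 to 8.81 in WT M1. In M-BKO they summed to 2.33 to 2.69 TPM in controls and 6.03 to 7.20 in M1, and their part in any change was not tested.

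Initiation is the step at which a ribosome is loaded on an mRNA and finds the start codon. eIF2 with GTP brings the initiator tRNA to the small subunit, eIF1, eIF1A, eIF3 and eIF5 complete that complex, and the cap-binding complex eIF4F (the cap-binding protein eIF4E, the scaffold eIF4G and the helicase eIF4A) recruits the mRNA. eIF5B then joins the large subunit. Cells control the step mainly by phosphorylating eIF2, which blocks its exchange factor eIF2B, and by 4E-binding proteins, which mTORC1 keeps off eIF4E. Macrophages given LPS are known to change which mRNAs they translate as well as which they transcribe.

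The name rule takes in genes of other function. Eif2c1 to Eif2c4 are older symbols of the Argonautes, which carry small RNAs. The kinases Eif2ak1, Eif2ak3 and Eif2ak4 phosphorylate eIF2 and are not part of the initiation machinery. Eif4a3 is a helicase of the exon junction complex and Eif1ad an eIF1A-domain protein of ribosome maturation. Without these genes 47 members remain. Eif4e1b, an eIF4E relative of oocytes, was listed at 0 in all 12 libraries, and the other 55 members passed the filter on low values (1 TPM or more in 3 or more libraries).

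The promoters of the 4 members that were higher in M-BKO than in WT after M1 activation are shown because each holds CACGTG. This E-box is the sequence that Bmal1 with Clock, and also Myc and related factors, are known to bind. Each is 300 bases of GRCm38.p6 from RefSeq, from 250 before the annotated start to 50 after it, 5′ to 3′ on the strand of the gene, with each E-box in capitals. They lie at chr3:138527018-138527317 (Eif4e, plus strand), chr3:28781027-28781326 (Eif5a2, plus), chr11:69672374-69672673 (Eif4a1, minus) and chr19:60790644-60790943 (Eif3a, minus).
Eif4e: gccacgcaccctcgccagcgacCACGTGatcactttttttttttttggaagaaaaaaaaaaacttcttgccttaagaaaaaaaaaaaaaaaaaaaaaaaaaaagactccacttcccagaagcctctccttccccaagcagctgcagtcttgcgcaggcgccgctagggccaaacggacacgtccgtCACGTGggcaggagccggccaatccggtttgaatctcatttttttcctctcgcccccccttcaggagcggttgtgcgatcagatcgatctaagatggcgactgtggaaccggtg
Eif5a2: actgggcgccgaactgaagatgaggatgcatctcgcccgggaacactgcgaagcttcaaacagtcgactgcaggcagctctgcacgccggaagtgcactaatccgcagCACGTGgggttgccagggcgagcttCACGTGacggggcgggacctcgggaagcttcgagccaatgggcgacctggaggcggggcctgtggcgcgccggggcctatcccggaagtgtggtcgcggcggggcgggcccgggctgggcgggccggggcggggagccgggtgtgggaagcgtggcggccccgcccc
Eif4a1: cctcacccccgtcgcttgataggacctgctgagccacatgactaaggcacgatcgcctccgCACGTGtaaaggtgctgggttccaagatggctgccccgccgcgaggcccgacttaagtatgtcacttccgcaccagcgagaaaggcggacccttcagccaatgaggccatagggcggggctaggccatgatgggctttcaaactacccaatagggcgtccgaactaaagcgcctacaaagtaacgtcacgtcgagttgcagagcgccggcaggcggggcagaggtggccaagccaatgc
Eif3a: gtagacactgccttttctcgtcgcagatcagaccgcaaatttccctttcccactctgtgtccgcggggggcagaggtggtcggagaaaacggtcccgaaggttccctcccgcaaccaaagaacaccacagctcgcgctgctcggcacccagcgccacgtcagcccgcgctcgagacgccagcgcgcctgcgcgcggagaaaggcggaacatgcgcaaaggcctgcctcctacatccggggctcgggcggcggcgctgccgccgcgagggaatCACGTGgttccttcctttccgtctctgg

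The E-boxes begin 228 and 64 bases before the start of Eif4e, 142 and 117 before that of Eif5a2 and 189 before that of Eif4a1. That of Eif3a lies at position 23 of the transcript. A further annotated start of Eif4e, at chr3:138525941-138526240, had none. These matches describe letters and are neither sites nor causes. The calls by which the genes were chosen changed with single libraries and with scaling, as given below.

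Initiation factor transcripts differed widely in level within WT control macrophages. In these libraries 24 members exceeded 100 TPM, 25 lay between 10 and 100 and 7 lay under 10. Eif4a1, the main eIF4A helicase, had the highest mean level in all 4 groups and was 1070, 1089 and 1149 TPM in WT controls, or 16.2% of the members' summed TPM. About 65.3% of the 50-base stretches of its transcripts also occur in another gene, mostly a pseudogene, so its value may include or lack shared reads. Eif5a, which helps ribosomes through difficult peptide bonds and carries hypusine, followed at 603 to 647 TPM, and Eif1, which guards start codon choice, at 413 to 451 TPM. Their groups of libraries did not overlap, so this order held in every WT control library.

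Summed over all members, the initiation factors took less of the transcript pool after M1 activation. The sum was 6708 to 6990 TPM in WT controls and 5770 to 5864 in WT M1. It was 7035 to 7101 TPM in M-BKO controls and 6162 to 6195 in M-BKO M1. No library of an M1 group reached any control library, and the M-BKO libraries lay above the WT libraries of the same treatment. Both statements hold for TPM, and the sum was not scaled between libraries. The factors that divide TPM in the scaling described below were 1.14 to 1.18 in WT controls and 0.82 to 0.86 in WT M1. In M-BKO they were 1.21 to 1.22 in controls and 0.86 to 0.87 in M1. The order of the groups may therefore differ on that scale. The 50 most abundant genes of a library meanwhile took 25.9% of all TPM in WT controls and 29.9 to 30.2% in WT M1. In M-BKO they took 23.5 to 23.6% in controls and 28.88 to 29.55% in M1. Their part in either difference of the sum was not tested.

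For the M1 response, which the study used to describe inflammatory activation, each member was compared on the scale of log2(TPM + 1). A call needed a limma adjusted p under 0.05 and a fold over 1.5. Most members were lower after LPS, but so was most of the transcriptome. In WT, 20 of 55 members were called lower and 5 higher, against 41% and 12.9% of all genes tested. The median log2 fold change was −0.44 for the members and −0.43 for all 10822 genes tested. In M-BKO, 20 members were called lower and 4 higher, against 42.3% and 12.3% of all genes, with medians of −0.44 for the members and −0.45 for all genes. These shares of called members were under those of the whole table. By the adjusted p alone 50 of 55 members passed in WT and 48 of 55 in M-BKO, against 86% and 85.7% of all genes. Libraries of control and M1 did not overlap for 47 members in WT and 50 in M-BKO, which was so for 84.4% and 89.3% of all genes.

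Because the median gene shifted by −0.43, all directions were also read after each library was scaled by the median ratio of its genes to the average library, called the median-gene scale below. On that scale the medians in WT were 0.02 for the members and −0.01 for all genes. In WT 7 members were then called higher and 4 lower, against 22.6% and 21.4% of all genes. In M-BKO 7 were called higher and 5 lower, against 22.2% and 22.3%. Quantile normalization gave 5 higher and 8 lower in WT, against 19.7% and 23.6%, and 7 higher and 11 lower in M-BKO, against 19.8% and 24.4%. On the median-gene scale the same 7 members rose in both genotypes, namely Eif1, Eif5, Eif4g2, Eif4ebp1, Eif6, Eif2c1 and Eif2c3, and Eif4e3, Eif2ak3, Eif2b3 and Eif5a2 fell in both.

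**Figure D1:**
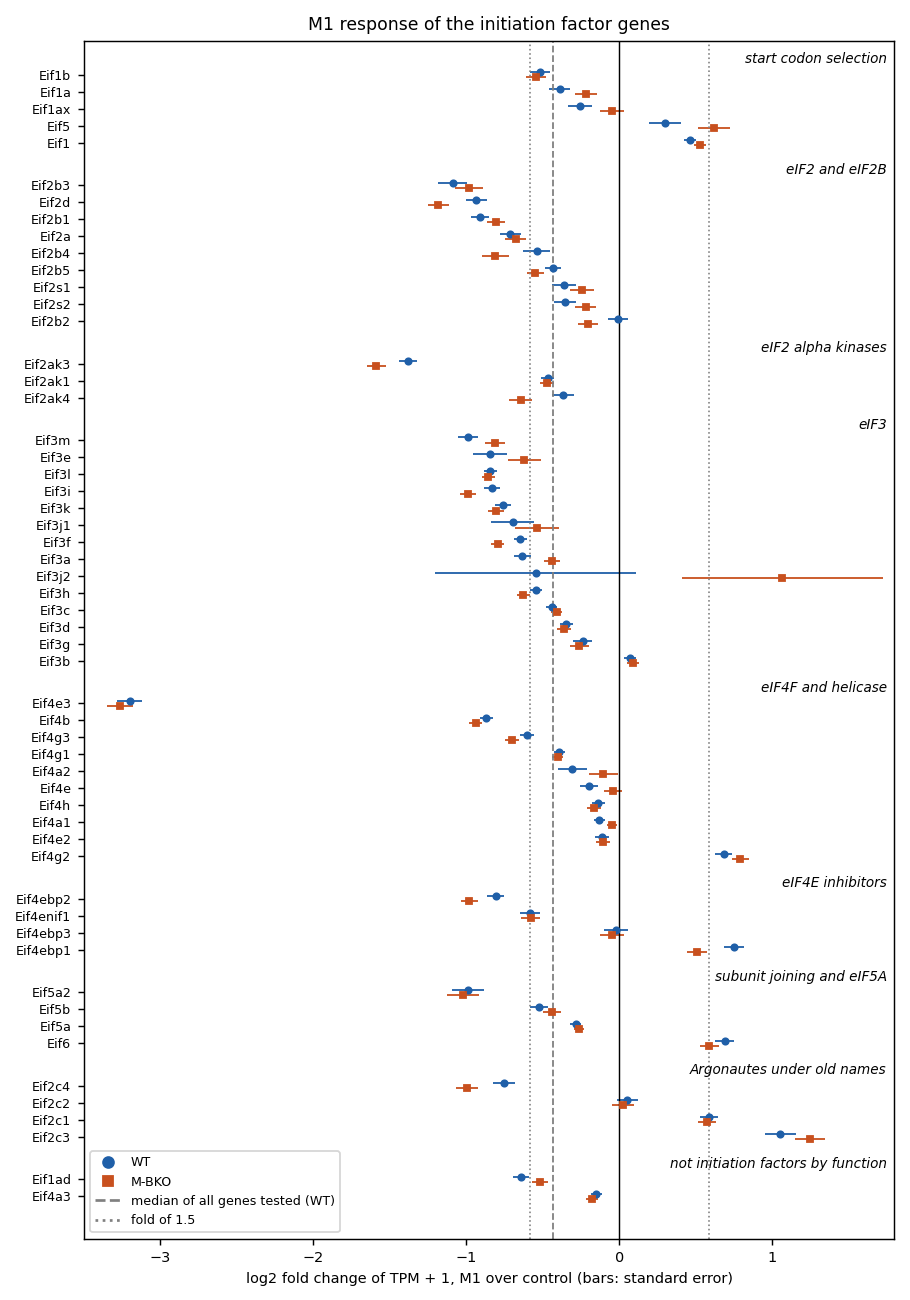
Log2 fold change of TPM + 1 (x axis) of the 55 tested members, M1 over control, grouped by role, in WT (blue circles) and M-BKO (orange squares), with standard errors as bars. The dashed line is the WT median of all genes tested, −0.43, and dotted lines mark a fold of 1.5. Eif4e3 lies far to the left in both genotypes, and Eif3j2 has by far the widest bars.

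The change that stood farthest from all others was the fall of Eif4e3. Its product is a divergent member of the eIF4E family that binds the cap but, in studies of mammalian cells, does not behave as the canonical eIF4E. It was 45.5, 41.8 and 51.4 TPM in WT controls and 3.60, 4.40 and 4.38 TPM in WT M1. The M-BKO values were 52.2, 49.0 and 48.2 TPM in controls and 4.56, 4.34 and 3.97 TPM in M1. The lowest control library thus lay far above the highest M1 library, and Eif4e3 moved from the level of Eif4e2 to one of the lowest among the members. The log2 fold change was −3.20 ± 0.084 (SE, n = 3 against 3) in WT, with a limma adjusted p of 1.6e-13. It was −3.26 ± 0.084 in M-BKO, with a limma adjusted p of 1.3e-13, and −2.79 and −2.82 on the median-gene scale. Of its 50-base stretches 12.3% occur in another gene.

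Eif4e, the canonical cap-binding protein gene, was not called. It was 64.1, 64.4 and 73.7 TPM in WT controls and 61.6, 58.1 and 56.1 in WT M1. The log2 fold change was −0.20 in WT and −0.04 in M-BKO, neither called, and 0.26 and 0.44 on the median-gene scale. Eif4e2, a cap-binding protein linked to repression of mRNAs, changed by −0.11 in WT and by 0.34 on the median-gene scale, also with no call. The WT directions of both genes thus turn with the scaling. The ratio of Eif4e to Eif4e3 within a library depends on it only through the 1 added to TPM. On the log2 scale it was 0.49 to 0.61 in WT controls and 3.41 to 3.77 in WT M1, and 0.43 to 0.52 and 3.66 to 3.75 in M-BKO.

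Among the scaffolds, Eif4g2 (Dap5), which lacks the eIF4E-binding part of eIF4G and serves cap-independent initiation, was the one that rose. It was 204, 202 and 235 TPM in WT controls and 365, 325 and 340 in WT M1. Its M-BKO values were 224, 217 and 217 TPM in controls and 381, 375 and 387 in M1. All 6 M1 libraries were above all 6 controls, with log2 fold changes of 0.68 ± 0.056 in WT (limma adjusted p = 3.3e-08) and 0.79 ± 0.056 in M-BKO (limma adjusted p = 6.1e-09). Eif4g1, the main scaffold, was 169, 172 and 166 TPM in WT controls and 130, 130 and 127 in WT M1, a change of −0.39 that stayed under the fold threshold and read 0.07 on the median-gene scale. Eif4g3, the other canonical scaffold, fell by 0.60 in WT and by 0.70 in M-BKO. Its WT call was lost with a pseudocount of 5, at −0.57, and on the median-gene scale both genotypes read −0.15 and −0.22.

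The helicase and its helpers were less uniform. Eif4b, which stimulates eIF4A, was 155, 152 and 165 TPM in WT controls and 87.7, 82.9 and 86.5 in WT M1, without overlap. Its log2 fold change was −0.87 ± 0.041 in WT (limma adjusted p = 8.6e-11) and −0.94 ± 0.041 in M-BKO (limma adjusted p = 3.5e-11), and −0.41 and −0.45 on the median-gene scale, where neither passed the fold threshold. Eif4h, a related helper, changed by −0.14 in WT, and by 0.33 on the median-gene scale, with no call. Eif4a1 changed by −0.13 in WT and −0.05 in M-BKO and read 0.34 and 0.44 on the median-gene scale, with no call on either scale.

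The genes of the 4E-binding proteins, which hold eIF4E away from eIF4G, did not move together. Eif4ebp1 was 133, 124 and 108 TPM in WT controls and 194, 207 and 212 in WT M1. In M-BKO it was 128, 126 and 124 TPM in controls and 176, 191 and 172 in M1. Its M1 libraries were all above its controls, with log2 fold changes of 0.75 ± 0.066 in WT (limma adjusted p = 8.3e-08) and 0.51 ± 0.066 in M-BKO (limma adjusted p = 5.3e-06), the latter under the fold threshold. The difference between the genotypes, −0.24, did not pass the interaction test (limma adjusted p = 0.24).

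Eif4ebp2 was 44.0, 47.7 and 47.8 TPM in WT controls and 27.3, 24.8 and 26.3 in WT M1. M-BKO cultures had 48.8, 49.6 and 51.4 TPM in controls and 24.5, 23.7 and 26.3 in M1. It fell in both genotypes without overlap, by 0.81 on the log2 scale in WT (limma adjusted p = 4.9e-09) and by 0.98 in M-BKO (limma adjusted p = 5.3e-10). On the median-gene scale it read −0.35 and −0.50 and was not called. Eif4ebp3 was 22.5 ± 2.12 TPM in WT controls and 22.1 ± 2.27 in WT M1 (SD, n = 3), was not called, and shares 65.5% of its 50-base stretches with other genes. Eif4enif1, which carries eIF4E to the nucleus, changed by −0.58 in both genotypes, just under the fold threshold.

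**Figure D2:**
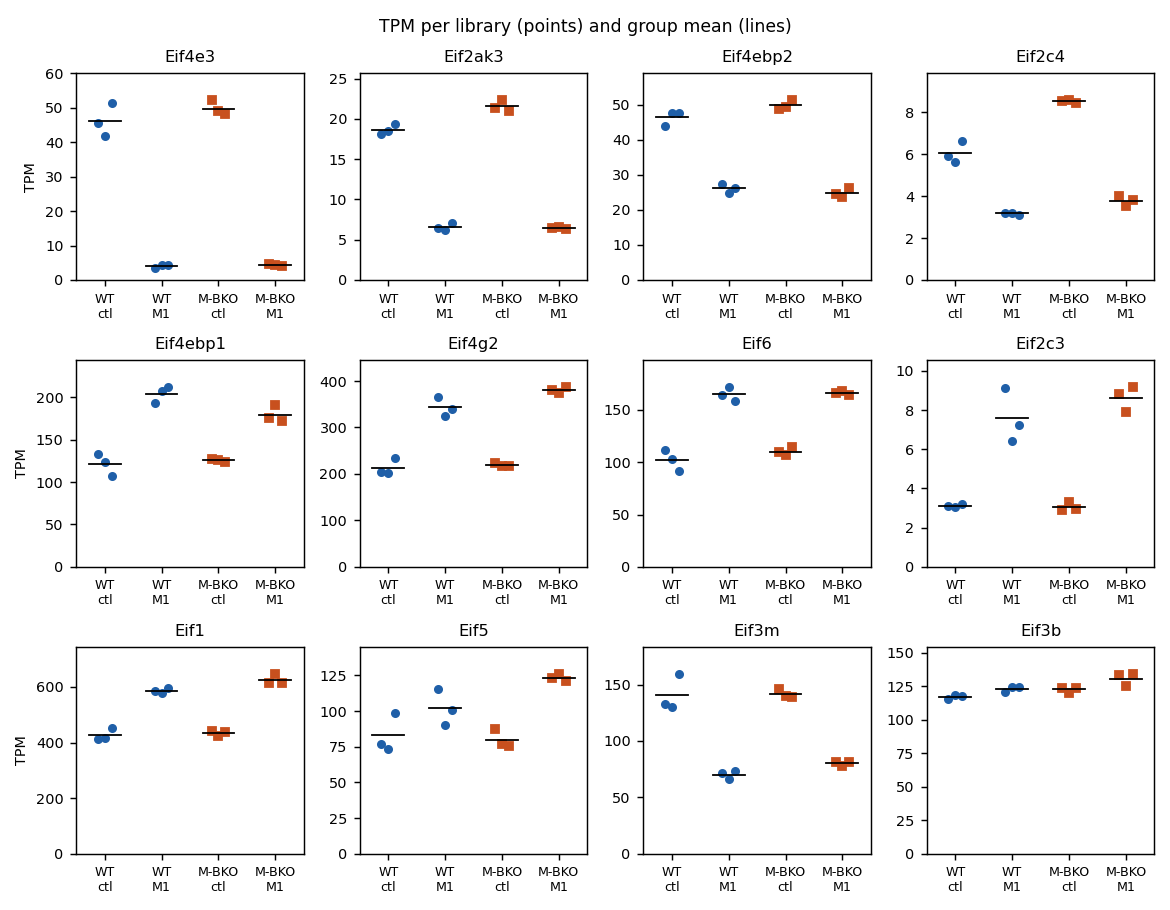
TPM (y axis, from 0) of 12 members in each library of the 4 groups, with points for the 3 cultures and a line for their mean. Eif4e3, Eif2ak3, Eif4ebp2 and Eif2c4 are lower in M1, Eif4ebp1, Eif4g2, Eif6, Eif2c3 and Eif1 are higher, and Eif3b lies at 116 to 134 TPM throughout while Eif3m falls.

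eIF3, the largest initiation factor, holds the small subunit and recruits other factors to it. None of its 14 subunit genes was called higher. In WT 8 fell and in M-BKO 7 fell, with a median log2 fold change of −0.64 and −0.58, beside 41% and 42.3% of all genes called lower and medians of −0.43 and −0.45 over all genes. None was called on the median-gene scale. Those that fell in both genotypes were Eif3e, Eif3f, Eif3i, Eif3k, Eif3l and Eif3m. Their fall ran from 0.65 (Eif3f) to 0.99 (Eif3m) in WT.

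Eif3m lay at 133, 130 and 159 TPM in WT controls and at 71.2, 66.5 and 73.0 in WT M1. Its log2 fold change was −0.99 ± 0.066 (limma adjusted p = 3.7e-09) in WT and −0.81 ± 0.066 (limma adjusted p = 3.1e-08) in M-BKO. Another gene, Ccdc73, lies on the opposite strand of Eif3m, and 37.3% of its 50-base stretches recur elsewhere. Eif3i was 149, 152 and 130 TPM in WT controls and 82.3, 79.9 and 78.5 in WT M1, a change of −0.83 in WT and −0.99 in M-BKO. In WT the median-gene scale gave −0.53 for Eif3m and −0.37 for Eif3i. The M1 and control libraries of both genes were separate in both genotypes.

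Eif3b, a scaffold subunit of the same complex, was the sole subunit gene with a change above 0 in both genotypes in TPM, before median-gene scaling. It was 116, 118 and 118 TPM in WT controls and 120, 125 and 125 in WT M1, and its log2 fold change was 0.07 ± 0.038 (limma adjusted p = 0.097) in WT and 0.09 in M-BKO, neither called. Eif3a, the largest subunit, was 143, 156 and 168 TPM in WT controls and 102, 96.6 and 102 in WT M1. It fell by 0.63 in WT (limma adjusted p = 4.1e-08) and changed by −0.44 in M-BKO, which was under the fold threshold. The WT call was lost without WT control replicate 3, where the change was −0.58. Eif3a read −0.17 on the median-gene scale.

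Eif3j1 and Eif3j2 are near-identical neighbours on the same strand of chromosome 2, and 91.9% of the 50-base stretches of Eif3j2 recur elsewhere. Eif3j2 was 2.21, 2.49 and 4.70 TPM in WT controls, 2.11, 0 and 5.60 in WT M1, 4.93, 0 and 4.69 in M-BKO controls and 4.30, 6.58 and 6.71 in M-BKO M1. Its groups overlapped, its standard error was 0.66, and it was the sole member whose M1 change differed in sign between genotypes. Both values are uncertain. The level of the subunit genes within a library differed by 7.75 to 12.9 fold between lowest (Eif3j1) and highest (Eif3k or Eif3h), leaving Eif3j2 aside.

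The 9 genes grouped with eIF2 and its exchange factor eIF2B, among them Eif2a and Eif2d from outside both complexes, were lower or near 0 in change. Of these, 4 were called in WT and 5 in M-BKO, all lower, beside 41% and 42.3% of all genes. Called in both genotypes were Eif2a, Eif2d, Eif2b1 and Eif2b3, and Eif2b4 was called in M-BKO alone. Neither eIF2 subunit gene, Eif2s1 or Eif2s2, was called. Eif2s1, the alpha subunit that the stress kinases phosphorylate, was 72.2, 72.5 and 90.1 TPM in WT controls and 65.4, 56.4 and 60.0 in WT M1, with a change of −0.36 that was not called and read 0.10 on the median-gene scale. Eif2b3, the gamma subunit of eIF2B, was 5.28, 6.14 and 5.89 TPM in WT controls and 2.22, 2.17 and 2.15 in WT M1. It fell without overlap, with a log2 fold change of −1.09 in WT (limma adjusted p = 5.9e-08) and −0.98 in M-BKO (limma adjusted p = 1.7e-07). On the median-gene scale it fell by 0.73 and 0.59. A pseudocount of 5 gave −0.58 in WT, just under the threshold.

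Other eIF2B genes did not all follow. Eif2b1, the alpha subunit, fell by 0.91 in WT and 0.81 in M-BKO, but read −0.47 and −0.34 on the median-gene scale, where neither was called. Quantile normalization gave −0.55 in WT and −0.41 in M-BKO, also without a call. Eif2b5, the catalytic subunit, changed by −0.43 and −0.55 without a call and read 0.02 and −0.07 on the median-gene scale. Eif2b2 changed by −0.01 in WT and −0.20 in M-BKO, and read 0.45 and 0.27 on the median-gene scale, without a call. Outside the complexes, Eif2d, which can deliver tRNA without eIF2, was 21.6, 23.2 and 22.7 TPM in WT controls and 10.5, 11.6 and 11.8 in WT M1 and fell by 0.93 in WT and 1.18 in M-BKO. The median-gene scale gave −0.50 for it in WT, without a call, and −0.72 in M-BKO. Eif2a, another factor that can act in place of eIF2, fell by 0.71 in WT and read −0.26 on the median-gene scale, without a call. It overlaps Serp1 on the opposite strand.

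Of the kinases, Eif2ak3 (Perk), the sensor of unfolded protein in the endoplasmic reticulum, fell most. It was 18.1, 18.5 and 19.4 TPM in WT controls and 6.40, 6.21 and 7.08 in WT M1. In M-BKO it was 21.3, 22.3 and 21.0 TPM in controls and 6.51, 6.64 and 6.35 in M1. No libraries overlapped, and the log2 fold change was −1.38 ± 0.060 in WT (limma adjusted p = 3.5e-11) and −1.59 ± 0.060 in M-BKO (limma adjusted p = 7.2e-12). On the median-gene scale it was −0.96 and −1.14. Eif2ak4 (Gcn2), the sensor of uncharged tRNA, was 7.68, 7.00 and 7.78 TPM in WT controls and 6.24, 5.39 and 5.14 in WT M1, a change of −0.37 without a call. It was called in M-BKO at −0.64 but not on the median-gene scale, where WT read 0.04.

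At start codon selection, Eif1 was 413, 415 and 451 TPM in WT controls and 587, 578 and 596 in WT M1. M-BKO cultures had 441, 423 and 437 TPM in controls and 615, 647 and 613 in M1. Its M1 libraries were all higher, at a log2 fold change of 0.46 ± 0.040 in WT (limma adjusted p = 6.6e-08) and 0.53 ± 0.040 in M-BKO (limma adjusted p = 1.4e-08). Both values lay under the fold threshold, and both passed it on the median-gene scale at 0.93 and 1.01. About 31.6% of the 50-base stretches of Eif1 recur elsewhere.

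Eif5, which triggers GTP hydrolysis by eIF2, was 76.8, 73.0 and 98.8 TPM in WT controls and 116, 90.0 and 101 in WT M1, so that these groups overlapped. In M-BKO it was 87.6, 76.6 and 75.5 TPM in controls and 123, 126 and 121 in M1, without overlap. The change of 0.30 ± 0.10 in WT was not called, and Eif5 rose by 0.62 ± 0.10 in M-BKO (limma adjusted p = 6.4e-05). That call was lost without M-BKO control replicate 3, at 0.58. The interaction for Eif5 did not pass (0.32, limma adjusted p = 0.32).

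Eif6, which keeps the large subunit from joining too early, was 112, 103 and 91.3 TPM in WT controls and 164, 172 and 159 in WT M1. In M-BKO it was 109, 107 and 114 TPM in controls and 167, 168 and 164 in M1. It rose without overlap, by 0.69 ± 0.060 in WT (limma adjusted p = 7.5e-08) and 0.59 ± 0.060 in M-BKO (limma adjusted p = 3.9e-07). The M-BKO value passed the fold threshold by little and did not pass it without M-BKO control replicate 2 (0.57), without M-BKO M1 replicate 2 (0.58) or with a pseudocount of 5 (0.57). Eif5b, the joining GTPase, changed by −0.52 in WT and −0.44 in M-BKO without a call.

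Eif5a changed by −0.28 in WT and −0.26 in M-BKO, with no call, and read 0.18 and 0.22 on the median-gene scale. Its relative Eif5a2, which is more restricted across tissues, was low, at 3.31, 3.08 and 4.19 TPM in WT controls and 1.39, 0.981 and 1.47 in WT M1. In M-BKO Eif5a2 was 5.17, 4.89 and 5.03 TPM in controls and 1.91, 2.20 and 1.81 in M1. It fell without overlap by 0.99 in WT (limma adjusted p = 6.9e-07) and 1.02 in M-BKO (limma adjusted p = 4.6e-07). With a pseudocount of 5 the changes were −0.44 and −0.52, under the fold threshold.

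The Argonautes under their older symbols split. Eif2c3 (Ago3) was 3.08, 3.04 and 3.19 TPM in WT controls and 9.13, 6.40 and 7.24 in WT M1, and 2.92, 3.28 and 2.95 against 8.84, 7.88 and 9.17 in M-BKO. It had the highest rise of any member, 1.05 ± 0.10 in WT (limma adjusted p = 2.0e-07) and 1.25 ± 0.10 in M-BKO (limma adjusted p = 3.0e-08). Eif2c4 (Ago4) was 5.92, 5.62 and 6.63 TPM in WT controls and 3.22, 3.20 and 3.12 in WT M1. It fell by 0.75 in WT and 0.99 in M-BKO, but was called in neither on the median-gene scale (−0.38 and −0.58) or after quantile normalization (−0.18 and −0.41). A pseudocount of 5 also ended the WT call, at −0.43.

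Eif2c1 (Ago1) rose by 0.59 in WT (limma adjusted p = 3.4e-07), at the edge of the threshold, and was 0.57 in M-BKO. The WT call was lost without WT control replicate 1 (0.55), without WT M1 replicate 1 (0.56) or replicate 3 (0.58) and with a pseudocount of 5 (0.51). Eif2c2 (Ago2), the slicer and the one that most small RNAs use, changed by 0.05 in WT and 0.02 in M-BKO, with no call. It was 19.7, 19.7 and 18.9 TPM in WT controls and 21.4, 20.2 and 19.0 in WT M1, and these libraries overlapped.

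Ratios of related genes within a library are touched by scaling between libraries only through the pseudocount. For 10 pairs, the log2 ratio of TPM + 1 in M1 was compared with that in control by a two-sided exact permutation test that shuffled treatment within genotype, over 400 arrangements. The smallest p this allows is 0.005, and 8 of 10 pairs reached it, at 0.00625 after Benjamini-Hochberg adjustment over the 10. Control and M1 libraries were separate for 84.4% of all genes in WT and 89.3% in M-BKO. No share for pairs of other genes was computed, so the count of 8 marks no trait of these pairs. The M1 shift toward the first gene, averaged over genotypes, was 3.12 for Eif4e over Eif4e3, 1.52 for Eif4ebp1 over Eif4ebp2, 1.02 for Eif1 over Eif1b and 0.73 for Eif5a over Eif5a2. It was 0.26 for Eif4g1 over Eif4g3. It was −1.13 for Eif4g1 over Eif4g2, −0.98 for Eif2ak3 over Eif2ak4 and −0.54 for Eif2c2 over Eif2c1. The size of the shift hung on the pseudocount where a gene is low. For Eif5a over Eif5a2 it was 1.08 with a pseudocount of 0.1 and 0.21 with 5, and for Eif4e over Eif4e3 it was 3.36 and 2.41.

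The other 2 pairs did not pass. Eif4a1 over Eif4a2, the second eIF4A helicase, shifted by 0.12 (exact p = 0.17, adjusted 0.189), and without WT M1 replicate 1 by 0.17 (exact test, adjusted p = 0.05). Eif4e over Eif4e2 shifted by −0.0090 (exact p = 0.905). In that last pair, leaving out single libraries gave −0.027 to 0.016. The M1 and control values of each of the 8 passing pairs were separate in both genotypes, as in Eif4ebp1 over Eif4ebp2, at 1.16 to 1.57 in WT controls against 2.78 to 3.01 in WT M1.

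**Figure D3:**
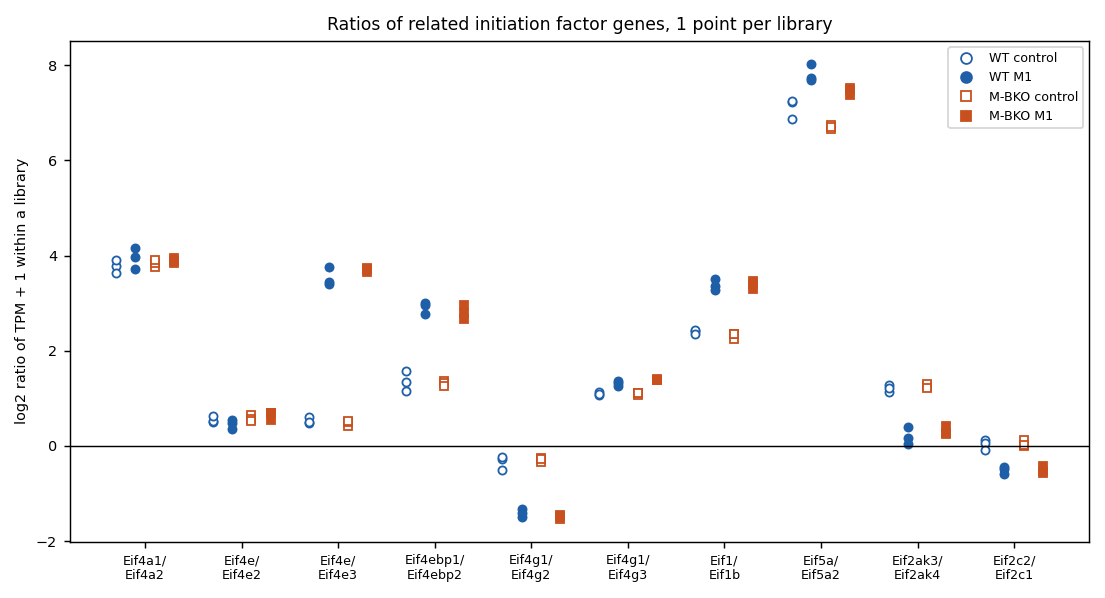
Log2 ratio of TPM + 1 between related genes within each library (y axis) for 10 pairs, with open symbols for controls, filled symbols for M1, blue circles for WT and orange squares for M-BKO. Eif4e over Eif4e3 shows the widest gap, from at most 0.61 in controls to at least 3.41 in M1, and Eif4e over Eif4e2 shows none.

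The M1 change had the same sign in both genotypes in 54 of 55 members (98.2%), as in 94.5% of all genes. Its 2 values lay within 0.2 of each other in 44 members (80%) and within 0.3 in 53 (96.4%), as in 76.7% and 90.7% of all genes. No member passed the interaction test at a limma adjusted p under 0.05, against 1.38% of all genes that passed. The count was also 0 on the median-gene scale and after quantile normalization, against 1.39% and 1.35%. At an unadjusted limma p under 0.05 there were 10 members, with no share of all genes computed beside them. Among members called by the fold threshold, 3 rose in both genotypes (Eif2c3, Eif4g2, Eif6) and 17 fell in both, against 11.5% and 38.1% of all genes. Those called in 1 genotype alone were Eif2c1, Eif4ebp1, Eif1ad, Eif3a and Eif3j1 in WT and Eif5, Eif2ak4, Eif2b4 and Eif3h in M-BKO, none of which is shown to differ between them.

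Between genotypes after M1 activation, 4 of 55 members were higher in M-BKO and 0 were lower at a limma adjusted p under 0.05, against 5.87% and 2.45% of all genes. By the unadjusted limma p, 18 members lay under 0.05, but the share of all genes under it was not computed. The 18 therefore have no baseline. The median difference was 0.08 for the members and 0.03 for all genes, with 43 members above 0 and 12 below. On the median-gene scale the medians were 0.03 and −0.01, with 33 members above 0 and 22 below. In TPM, libraries of WT M1 and M-BKO M1 did not overlap for 20 members, of which 19 were higher in M-BKO. Among all genes 31.9% had no overlap, with both directions pooled and not counted apart. Genes called over the whole table also lay more often higher in M-BKO, 635 against 265 lower. The count of 4 hung on single libraries. It was 11 without WT control replicate 3, 9 without WT M1 replicate 1, 2 without any single M-BKO control replicate and 1 without WT M1 replicate 2 or 3 or any single M-BKO M1 replicate. On the median-gene scale it was 2, Eif3a and Eif5a2, against 3.95% of all genes, and after quantile normalization it was 3, against 3.47%. Neutrophil markers moved with this comparison, at a summed 81.1 to 88.9 TPM in WT M1 and 117 to 124 in M-BKO M1. Of the 4 tested, 3 were higher in M-BKO. Most of the M-BKO M1 sum was S100a8 (46.9 to 51.0 TPM) and S100a9 (65.2 to 68.3). The paper names both as Hif-1α targets that M1-activated M-BKO macrophages express more highly. The other 2 tested were Camp, at 1.99 to 2.60 TPM in WT M1 and 3.78 to 4.12 in M-BKO M1, and Ltf. Ltf was 0.428 to 0.543 TPM in WT M1 and 0.550 to 0.597 in M-BKO M1. Macrophage markers summed to 4862 to 5006 TPM in WT M1 and 5373 to 5536 in M-BKO M1, with 3 of 7 higher. The part of either in the differences was not tested.

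Eif3a had the smallest adjusted p of the 4. It was 102, 96.6 and 102 TPM in WT M1 and 118, 112 and 121 in M-BKO M1, so that the groups were separate. The log2 difference was 0.23 ± 0.052 (limma adjusted p = 0.018) and 0.18 on the median-gene scale (limma adjusted p = 0.039). It was not called without WT M1 replicate 2, M-BKO M1 replicate 1 or M-BKO M1 replicate 3, at limma adjusted p of 0.0657 to 0.0758. Without LPS the difference was 0.03, and WT control libraries spread from 143 to 168 TPM around the M-BKO control value of 159.

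Eif4a1 was 999, 1020 and 1004 TPM in WT M1 and 1090, 1136 and 1105 in M-BKO M1, again separate. Its log2 difference was 0.14 ± 0.033 (limma adjusted p = 0.020), and 0.09 on the median-gene scale with no call (limma adjusted p = 0.18). The call was also lost without WT M1 replicate 3, M-BKO M1 replicate 2 or M-BKO M1 replicate 3, at limma adjusted p of 0.0576 to 0.0836. Eif4e was 61.6, 58.1 and 56.1 TPM in WT M1 and 69.2, 70.9 and 64.1 in M-BKO M1. Its log2 difference of 0.21 ± 0.059 (limma adjusted p = 0.041) was not called on the median-gene scale or without any single M-BKO control replicate, WT M1 replicate 2 or 3, or M-BKO M1 replicate 1 or 2.

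Eif5a2 was the sole member higher in M-BKO under both treatments. After M1 its values of 1.39, 0.981 and 1.47 TPM in WT and 1.91, 2.20 and 1.81 in M-BKO gave a log2 difference of 0.39 ± 0.11 (limma adjusted p = 0.039). Without LPS it was 3.31, 3.08 and 4.19 TPM in WT, while M-BKO had 5.17, 4.89 and 5.03 TPM, which gave 0.42 ± 0.11 (limma adjusted p = 0.035). The groups were separate in both cases. Both calls rest on the library set, since the M1 one was lost without any single M-BKO library or WT M1 replicate 2 or 3. The control one was lost without WT control replicate 1 or 2, any single M-BKO control replicate or M-BKO M1 replicate 1. Scaling also ended the control call, on the median-gene scale (limma adjusted p = 0.11) and after quantile normalization (limma adjusted p = 0.12). With no filter on low values neither call held.

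Without LPS, 2 of 55 members were higher in M-BKO and 0 were lower, against 4.56% and 1.12% of all genes. By the unadjusted limma p, 9 members lay under 0.05, with no share of all genes computed beside them. The median difference was 0.06 for the members and 0.07 for all genes, with 48 members above 0 and 7 below. On the median-gene scale the medians were −0.01 and −0.0009, with 23 members above 0 and 32 below. In TPM, libraries of the 2 control groups did not overlap for 18 members, all 18 higher in M-BKO. Overlap was not read on the median-gene scale. For all genes the share was 26.2%, with both directions pooled and not counted apart. Genes called over the whole table also leaned upward, 494 higher in M-BKO against 121 lower. Neutrophil markers, mostly S100a8 and S100a9, summed to 227 to 262 TPM in WT controls and 296 to 342 in M-BKO controls, with 1 of 4 higher. Macrophage markers summed to 5429 to 5541 and 6068 to 6215 TPM, with 4 of 7 higher. The part of either was not tested. The second gene was Eif2c4 (Ago4), at 5.92, 5.62 and 6.63 TPM in WT controls and 8.53, 8.58 and 8.47 in M-BKO controls. Its log2 difference was 0.44 ± 0.070 (limma adjusted p = 0.0024), the groups were separate, and on the median-gene scale it was 0.36 (limma adjusted p = 0.0065). The count was 4 without WT control replicate 3, and it was 1 without WT control replicate 1 or 2, any single M-BKO control replicate or M-BKO M1 replicate 1. It was also 1 on the median-gene scale, against 1.31% of all genes, and after quantile normalization, against 1.87%.

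**Figure D4:**
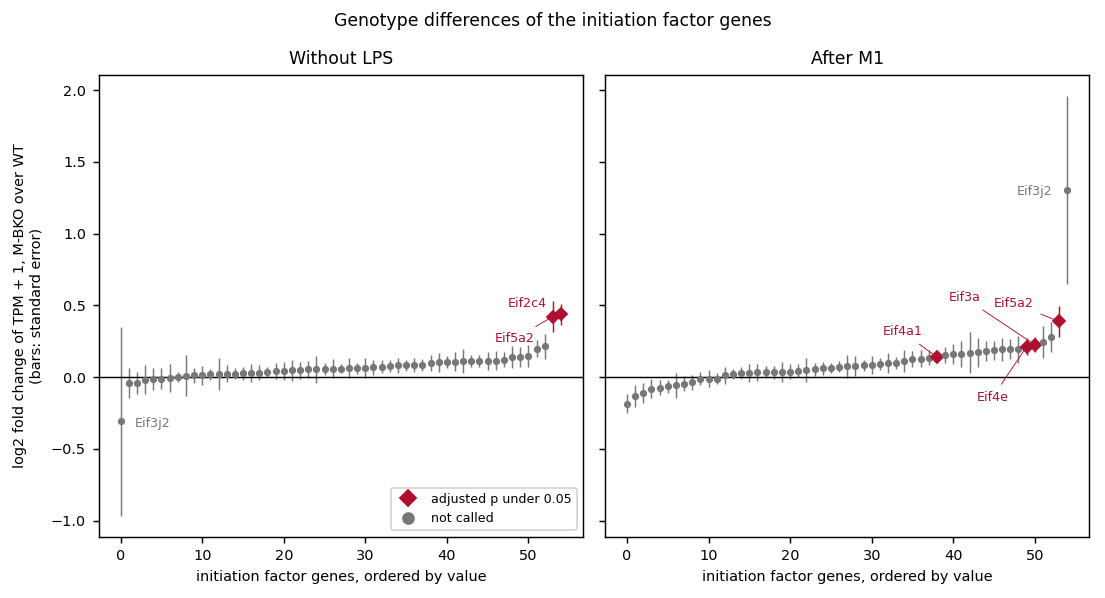
Log2 fold change of TPM + 1, M-BKO over WT (y axis), of the 55 tested members in order of value, without LPS (left) and after M1 (right), with standard errors as bars. Red diamonds passed a limma adjusted p of 0.05, 2 on the left and 4 on the right, and the values lie within 0.3 of 0 apart from Eif3j2, Eif5a2 and Eif2c4.

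Promoters in RefSeq could be matched for 43 of the 56 members, giving 57 windows, with 3 Argonautes found under their present symbols. CACGTG, which reads the same on both strands, occurred in 12 of the 57 windows (21.1%), against 7.15% of the 32851 windows of all genes. Those windows include genes too low to be tested here, so the share among tested genes, given below, is the nearer baseline. They belong to Eif1b, Eif3a, Eif3f, Eif3k, Eif4a1, Eif4e, Eif4g1, Eif4h, Eif5a and Eif5a2. All 4 members that were higher in M-BKO after M1 are among these 10, and none is among the 33 without the letters. The median difference between genotypes after M1 was 0.0744 with the E-box and 0.0753 without it, and libraries lay higher in M-BKO without overlap for 4 of the 10 and 13 of the 33.

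Counted over genes rather than windows, 12.4% of the 8187 tested genes with a promoter held an E-box, beside 10 of the 43 members with a promoter. The letters occurred in 87 of the 484 such genes called higher in M-BKO after M1 and 22 of the 197 called lower. Without LPS the numbers were 46 of 371 and 5 of 85. A match for TGATGNAA, the pattern of C/EBP-ATF elements, or for the κB motif, both searched on both strands, occurred in 0 of the 57 member windows, against 3.97% and 0.411% of all windows. With neither pattern present in these windows, none could overlap an E-box.

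Other genes of protein synthesis and its control give the setting. Over all genes tested, 41% were called lower and 12.9% higher in WT, and 42.3% and 12.3% in M-BKO. On the median-gene scale the WT shares were 21.4% lower and 22.6% higher. Of 17 elongation and termination genes tested, 10 fell in WT and 9 in M-BKO and 0 rose, with medians of −0.68 and −0.59 beside −0.43 and −0.45 for all genes. Among them Eef1g fell by 0.82 in WT and Eef1d by 1.10, both subunits of the exchange factor of eEF1A. In WT 3 of the 17 were higher and 4 lower on the median-gene scale. After M1, 4 of the 17 were higher in M-BKO, against 5.87% of all genes, among them Gspt1 (0.35), the release factor eRF3, and Eef1e1 (0.31). Of 25 other genes that work with initiation factors, 8 were called lower and 1, Larp1, higher in WT, and 12 lower and 0 higher in M-BKO. In WT 5 were lower and 2 higher on the median-gene scale. Bzw2, an eIF5 mimic, fell by 1.68 in WT, and Dhx29, a helicase that helps the small subunit scan structured leaders, by 1.13.

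Genes around the 2 main controls of initiation moved both ways. Of 18 mTORC1 pathway genes in the fit, WT had 5 called higher and 6 lower, or 6 and 3 on the median-gene scale. Of all genes 12.9% were called higher and 41% lower in WT, or 22.6% and 21.4% on the median-gene scale. Ddit4, an mTORC1 inhibitor, rose by 2.13 and Akt1s1, another, by 1.26, while Sesn1, an inhibitor as well, fell by 3.25 and Tbc1d7, a partner of the TSC complex, by 1.32. Of 13 genes of eIF2 stress signalling, 5 were called higher and 2 lower in WT, or 8 and 2 on the median-gene scale. Their median change in TPM in WT was 0.33, beside −0.43 for all genes. Ppp1r15a (Gadd34), which brings a phosphatase to eIF2, rose by 3.60 and Impact, which restrains Gcn2, by 1.28, whereas Asns, an amino acid synthesis gene that Atf4 activates, fell by 1.62 and Dnajc3, an inhibitor of the eIF2 kinases, by 1.29. These 8 named genes kept their direction and call in M-BKO.

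Markers of dividing cells moved with the M1 response of the initiation factors. All 8 fell in both genotypes, against 38.1% of all genes called lower in both. Their summed level was 916 to 992 TPM in control libraries and 353 to 405 in M1 libraries. Of 4 neutrophil markers tested 3 fell in both genotypes, in WT from a sum of 227 to 262 TPM to one of 81.1 to 88.9 and in M-BKO from 296 to 342 to 117 to 124. In bulk RNA, fewer cells of a type and less RNA per cell cannot be told apart, and the part of these markers in the changes of the initiation factors was not tested.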

How the data were processed

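Stranded mRNA libraries (TruSeq) of 12 BMDM cultures were sequenced. In CLC Genomics Workbench the authors trimmed the reads, aligned them to mm10 and made the deposited TPM by gene, which sum to 1000000 in every library. The version and gene annotation are not given in the sources used here. A second deposited table holds the authors' own fold changes and p-values and was not used. A residual from the group mean had an SD of 0.0777 to 0.142 (log2) per library.

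Log2(TPM + 1) of the 10822 genes that reached 1 TPM in 3 or more libraries was fitted in limma 3.58.1 (R 4.3.3) with 4 group means, 8 residual degrees of freedom and a variance trend. P-values were adjusted by Benjamini-Hochberg over all genes within each of 5 comparisons. M1 responses needed an adjusted p under 0.05 and a fold over 1.5, the others an adjusted p under 0.05. In data simulated for the genotype comparison after M1, 90 of 100 genes changed 1.5-fold and 99 of 100 changed 2-fold were called, with 7 false calls in the 10822 genes fitted. Pair ratios and promoter letters were computed in Python 3.11.15. Shared 50-base stretches were counted in GENCODE transcripts.

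Members, gene lists, tests and alternatives were chosen with earlier results of these data known. Members are named if called (up to 6 per direction and comparison with at least 5 TPM), one per role, in a pair, or needed for a small count. Of other lists up to 2 called genes per direction are named by smallest adjusted p. Alternatives varied the pseudocount, filter, scaling, variance trend, libraries, fold threshold and replicate block. Mapping and TPM were left as deposited, so reads shared by gene copies stand as the authors assigned them.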

Additional observations from a re-analysis of the deposited data

How the results depend on the processing

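Across 23 alternative settings (22 planned, and the total without the 50 most abundant genes, chosen after seeing the data), 965 of 1077 values of single members kept their direction and their side of the threshold, 85 lost a call, 15 gained one and 12 changed sign. All 12 belong to the M1 response in WT, for which most single members were followed. Over all 55 members median-ratio scaling changed the sign of 19 in WT and 20 in M-BKO, and quantile normalization of 5 and 6. After median-ratio scaling Eif2s1 was 0.10, Eif2b5 0.021, Eif4a1 0.34, Eif4e 0.26, Eif4g1 0.072, Eif5a 0.18, Eif4a2 0.15, Eif4e2 0.34 and Eif2ak4 0.036. After quantile normalization Eif4e was 0.011, Eif4e2 0.14 and Eif2ak4 0.15. Members lower in WT M1 numbered 20, but 4 after median-ratio scaling, 8 after quantile normalization and 43 with no fold threshold. In M-BKO the 20 became 5, 11 and 40. Members higher in M-BKO M1 numbered 4, but 7 after median-ratio scaling, after quantile normalization or without the 50 most abundant genes, and 8 with no fold threshold. The scaling itself moves the median gene, and fewer genes are lower on it. Members higher in M-BKO after M1 numbered 4, but 2 with no filter, after median-ratio scaling or with no variance trend, 7 with the groups compared alone and 0 with a fold of 1.5 required, and 1 was lower with the groups alone. Without LPS the count of 2 became 1 with a pseudocount of 0.1, no filter, a filter of 5 TPM, either other scaling, the groups alone or without the 50 most abundant genes, and 0 with a fold of 1.5. The cause of these moves was not tested. Without the Argonautes and eIF2 kinases the members' summed TPM was 6658 in WT controls, 5701 in WT M1, 6908 in M-BKO controls and 6044 in M-BKO M1, by construction lower.

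Leaving out 1 library gave 4 to 5 members higher and 19 to 22 lower in WT M1, and 3 to 4 higher and 20 to 21 lower in M-BKO M1. It gave 1 to 11 higher and 0 to 1 lower in M-BKO after M1, 1 to 4 higher and 0 lower without LPS, and 0 in the interaction. The shift of Eif4a1 over Eif4a2 was 0.065 to 0.17 and that of Eif4e over Eif4e2 −0.027 to 0.016, the latter with single values of 0.0098, 0.016, 0.0090 and 0.014 above 0.

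The replicate numbers of the labels were not taken to pair the samples. The correlation of deviations between same-numbered libraries ran from −0.249 to 0.258, and 5 of 12 had their closest library under the same number. With 3 libraries a group these values cannot settle whether the numbers mark pairs. With the replicate block 5 members were higher and 20 lower in WT M1, 4 and 20 in M-BKO M1, 3 and 0 in M-BKO after M1 (Eif4e had an adjusted p of 0.0616), 2 and 0 without LPS and 0 in the interaction. Depth is unknown, so limits at low TPM, such as for Eif5a2, Eif2b3 and Eif3j2, rest on 3 cultures a group.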
